A study of Mus musculus with 7 samples.

Results

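Sphingosine 1-phosphate (S1P) is made, exported, sensed and destroyed by a small set of proteins, and 8 of their genes were followed here: the receptors S1pr1, S1pr2 and S1pr3, the kinases Sphk1 and Sphk2, the exporter Spns2, the lyase Sgpl1 and the phosphatase Sgpp1. They were taken by gene symbol from the 49585 genes listed for each library, and each symbol matched 1 row. RNA had been sequenced from MS-1 cells, a mouse endothelial line from pancreatic islets, in 4 libraries with the genotype label LPL overexpression and in 3 control libraries with the genotype label WT. LPL is lipoprotein lipase, which releases fatty acids from triglyceride-rich particles in capillaries. Cells of both groups were grown in DMEM. The labels give neither the species nor the promoter of the introduced LPL, nor the number of clones, no vector-only library was analysed here, and replicates are not stated to be separate cultures. The p-values therefore weigh differences against library-to-library spread, which may be technical.

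S1P is formed in cells when a sphingosine kinase phosphorylates sphingosine. Endothelial cells release it through the transporter SPNS2, and in blood it travels on apolipoprotein M and albumin. On endothelium the receptor S1PR1 couples to Gi and, through Rac, strengthens junctions and barrier function, whereas S1PR2 couples mainly to G12 and G13 and can loosen the barrier, and S1PR3 couples to Gi, Gq and G12/13. Inside the cell the signal is ended by dephosphorylation or, irreversibly, by S1P lyase.

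The libraries held between 24328418 and 29210847 sense reads. Lpl had 10867, 12691, 10901 and 12753 reads in LPL overexpression libraries 1 to 4, against 1, 1 and 6 reads in controls 1 to 3. All 8 endothelial markers checked were read in every library. Their summed level was 4759 to 4926 CPM (read counts divided by the TMM-scaled library size) in the LPL overexpression libraries, against 5751 to 5857 CPM in the controls. Pecam1 alone averaged 2144 CPM in the LPL overexpression libraries and 2823 CPM in the controls, and Tie1 and Eng did not pass. The LPL overexpression libraries also carried markers of pigment cells: all 10 checked were higher, 7 of them had 0 reads in every control, and their sum was 1371 to 1439 CPM in the LPL overexpression libraries, against 3.15 to 3.72 CPM in the controls. Tyrp1, Pmel and Dct, which encode melanosome proteins, had 49463, 36081 and 32291 reads over the LPL overexpression libraries, against 0, 77 and 0 reads over the controls. Whether these reads came from other cells in the material, from a clone that differs from the control line or from material other than its label says cannot be told apart here, and this bears on every comparison of the LPL overexpression libraries with the controls. Of 8 markers of mural cells and fibroblasts, 4 were tested and 2 rose, where 21.9% of all genes tested rose. These 2 entered the test only through the LPL overexpression libraries, so their calls are no support for their rise. The list summed to 8.56 to 9.25 CPM in the LPL overexpression libraries and 5.45 to 6.12 CPM in the controls. Dcn was at 0 in all 7 libraries. Of 7 blood cell markers, only Cd68 was tested (it rose). The list summed to 94.2 to 103 CPM in the LPL overexpression libraries and 71.4 to 76.8 CPM in the controls. Cd68 alone averaged 98.7 CPM in the LPL overexpression libraries and 74.7 CPM in the controls. The other blood cell markers had at most 4 reads over either group, and Cd3e and Adgre1 were at 0. Of 8 islet and exocrine markers, only Krt19 was tested (it did not pass), 6 were at 0 and the sums were 7.10 to 8.73 CPM in the LPL overexpression libraries and 6.87 to 8.03 CPM in the controls. The endothelial, pigment and mural cell sums, and the blood cell sum through Cd68, thus differed between the same 2 groups as every value below. The part of these markers in those values was not tested.

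S1pr1 and Spns2 fell modestly with LPL overexpression, S1pr2 rose modestly, and Sphk1, close to silent in the controls, was read at a low level with LPL overexpression. Of the 8 genes, 7 were tested, and 4 of these passed (edgeR's quasi-likelihood test with adjusted p under 0.05), 2 higher and 2 lower. Over all 13639 genes tested 43.2% passed, 21.9% higher and 21.3% lower, and the median log2 fold change was 0.00. The count of 4 in 7 is to be read against that share. The calls over all genes were 2988 higher and 2900 lower, but 3304 higher and 2082 lower with limma on log2(TPM + 0.5). Sphk1, 1 of the 2 higher genes, entered the test only through its reads in the LPL overexpression libraries, so its call is no support for its rise. The libraries of the 2 groups did not overlap in CPM for the same 4 genes, against 44.6% of all genes tested. For Sphk1 this separation, like its call, is no support for its rise. In bulk RNA, fewer cells of a type and less RNA per cell cannot be told apart.

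**Figure D1:**
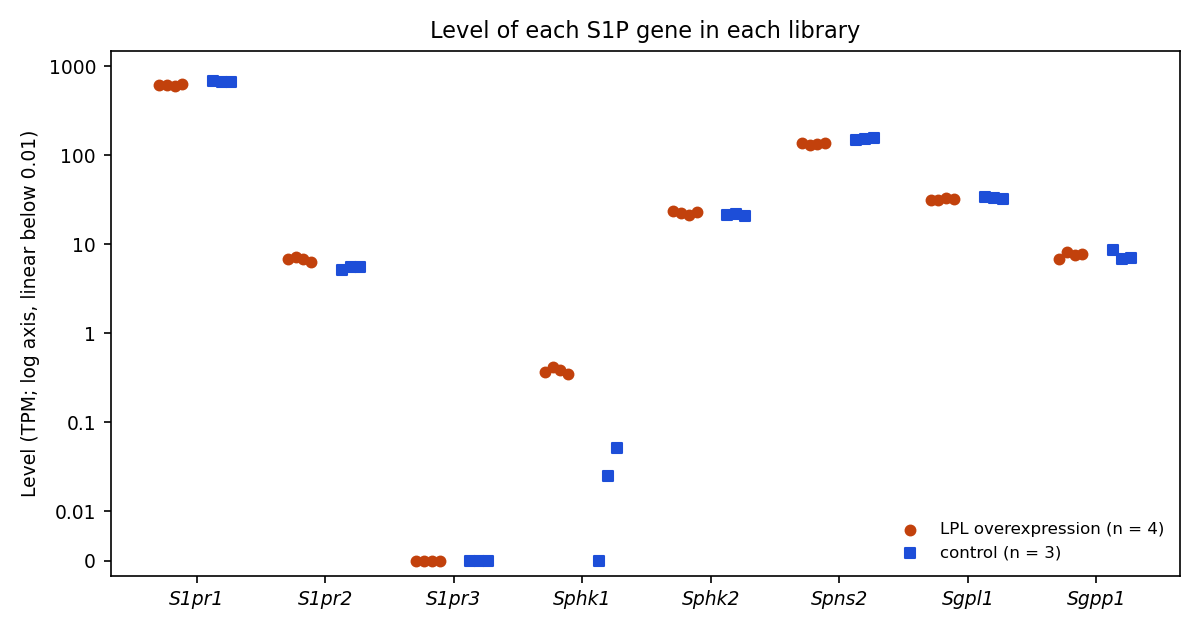
Level of each of the 8 S1P genes in TPM, the authors' length-scaled expression unit, in each library, on an axis that is logarithmic above 0.01 TPM and linear below it; circles are the 4 LPL overexpression libraries and squares the 3 controls. S1pr1 lies at 609 TPM or more in every library, S1pr3 lies at 0 in all of them, and Sphk1 lies at 0.351 to 0.422 TPM with LPL overexpression and at or under 0.0522 TPM in the controls.

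S1pr1, the Gi-coupled receptor that maintains endothelial barriers, was the dominant S1P receptor gene. The gene (ENSMUSG00000045092.8) lies on the minus strand of chromosome 3 of mm10, from 115710433 to 115715072. Its level in TPM, the authors' unit that divides reads by gene length and scales every library to the same total, was 614, 625, 609 and 628 TPM in LPL overexpression libraries 1 to 4, against 686, 674 and 672 TPM in controls 1 to 3. All 4 LPL overexpression libraries were under all 3 controls. By mean TPM it ranked 200 among the 13639 genes tested in the LPL overexpression libraries and 185 in the controls. In TMM-scaled counts, on which all fold changes here are fitted, it fell by 10.3%, a log2 fold change of -0.16 with a standard error of 0.02 (edgeR adjusted p = 2.19e-07), lower in 4 of 4 libraries. The endothelial markers were lower by up to 0.40 on the log2 scale. Cdh5 (VE-cadherin) had -0.17, Erg -0.12, Pecam1 -0.40 and Tie1, which did not pass, -0.02. The value for S1pr1 lay inside their range, which is wide and also holds the median of all genes that fell (-0.19).

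S1pr2, the receptor that couples mainly to G12 and G13, was low and rose. The gene (ENSMUSG00000043895.6) lies on the minus strand of chromosome 9, from 20962361 to 20976781. It stood at 6.93, 7.30, 6.91 and 6.42 TPM in LPL overexpression libraries 1 to 4, against 5.21, 5.58 and 5.58 TPM in controls 1 to 3. The groups did not overlap. S1pr2 was 1.24-fold higher, a log2 fold change of 0.31 (SE 0.06, edgeR adjusted p = 3.58e-05), higher in 4 of 4 libraries. The log2 fold changes of the 8 endothelial markers lay between -0.40 and -0.02, and 6 of them fell while 2 did not pass. The direction of S1pr2 was opposite to that of the 6 that fell, where 21.3% of all genes tested fell and 21.9% rose. The pigment cell markers rose in the same libraries. The part of either set of markers in the value of S1pr2 was not tested.

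S1pr3 had 0 reads in all 7 libraries and could not be tested. A group with no read allows up to 3 reads, or 0.028 CPM over the LPL overexpression libraries and 0.0372 CPM over the controls, a limit for counting error alone, since reads lacking molecular identifiers may be copies of 1 molecule. The 250 bases before the annotated starts of S1pr2 and S1pr3 are shown because one of these receptors was read in every library and the other in none. They are RefSeq sequences of build GRCm38.p6 on the strand of each gene, S1pr2 at chr9:20976794-20977043 (minus strand) and S1pr3 at chr13:51408368-51408617 (plus strand), with each CG dinucleotide in capitals, which reads the same on both strands.
S1pr2: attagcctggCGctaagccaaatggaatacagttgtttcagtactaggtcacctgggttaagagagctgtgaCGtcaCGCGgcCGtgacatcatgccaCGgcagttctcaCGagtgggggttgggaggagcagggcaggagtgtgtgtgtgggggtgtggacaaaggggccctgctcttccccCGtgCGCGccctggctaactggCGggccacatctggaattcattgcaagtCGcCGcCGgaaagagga
S1pr3: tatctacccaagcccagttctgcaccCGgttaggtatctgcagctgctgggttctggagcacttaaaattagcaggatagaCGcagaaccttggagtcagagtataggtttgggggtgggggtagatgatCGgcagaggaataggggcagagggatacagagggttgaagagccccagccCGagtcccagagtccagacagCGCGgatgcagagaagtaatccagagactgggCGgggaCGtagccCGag
The window of S1pr2 holds 14 CG dinucleotides and that of S1pr3 holds 9. Of 32851 such windows in the table, whose median is 6, 29.4% hold at least as many as S1pr2 and 40.3% at least as many as S1pr3. This describes the letters and says nothing of what binds there.

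Per length, S1pr1 made up nearly all receptor RNA in both groups. Its share of the summed TPM of the 3 receptors was 98.9% ± 0.06 (SD, n = 4) in the LPL overexpression libraries and 99.2% ± 0.04 (SD, n = 3) in the controls. The ratio of S1pr1 to S1pr2 was 85.7 to 97.8 with LPL overexpression, against 121 to 132 in the controls, and the ranges did not overlap. The receptor sum was 626 ± 8.82 TPM (SD, n = 4) with LPL overexpression and 683 ± 7.51 TPM (SD, n = 3) in the controls.

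**Figure D2:**
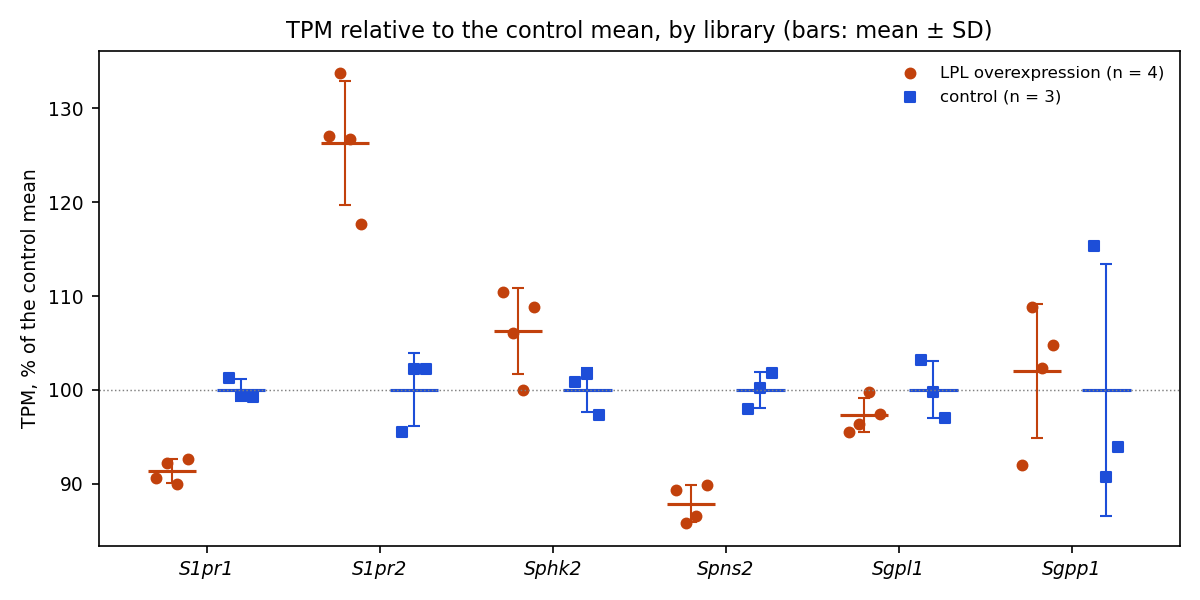
TPM of 6 S1P genes in each library as a percentage of the control mean of that gene, with circles for the 4 LPL overexpression libraries, squares for the 3 controls and bars for mean ± SD; S1pr3 (no reads) and Sphk1 (3 control reads) are left out. The groups separate for S1pr1, S1pr2 and Spns2 and overlap for Sphk2, Sgpl1 and Sgpp1.

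Sphk1, the cytosolic sphingosine kinase that many growth factors activate, was almost unread in the controls. The gene (ENSMUSG00000061878.15) lies on the plus strand of chromosome 11, from 116530925 to 116536674. It had 13, 18, 14 and 14 reads in LPL overexpression libraries 1 to 4, against 0, 1 and 2 reads in controls 1 to 3. Every LPL overexpression library lay above every control. In TPM the level was 0.382 ± 0.0306 (SD, n = 4) with LPL overexpression and 0.0256 ± 0.0261 (SD, n = 3) in the controls, so it remained the lowest of the 7 genes with reads. The pooled CPM ratio was 14.8 (exact Clopper-Pearson 95% counting interval 4.83 to 73.8). That interval covers counting error alone and leaves out the spread between libraries. Like the call, neither the interval nor the separation of the libraries is support for the rise. The fitted log2 fold change, given as a description because the gene passed the filter on low counts only through the LPL overexpression libraries, was 3.73 (SE 0.55), and 4.60 once control replicate 3, with 2 of the 3 control reads, was left out. The 59 reads of the LPL overexpression libraries came from the libraries that carried the pigment cell genes, whose part in this difference was not tested. RefSeq lists 5 starts for Sphk1. Only the window before the fourth, at chr11:116532194-116532443 (plus strand, GRCm38.p6), overlaps no annotated exon. That window lies inside the gene, and it is shown because the gene is the member with the largest change. Capitals again mark CG.
Sphk1: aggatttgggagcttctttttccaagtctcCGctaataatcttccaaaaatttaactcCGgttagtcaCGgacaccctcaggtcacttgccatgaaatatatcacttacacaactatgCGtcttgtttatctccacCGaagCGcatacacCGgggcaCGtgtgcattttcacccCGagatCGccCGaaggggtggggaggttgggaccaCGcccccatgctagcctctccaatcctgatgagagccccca
It holds 12 CG dinucleotides, a number reached by 33.5% of the 32851 windows. The counts per gene do not tell which start gave the reads.

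Sphk2, the isoform found in the nucleus and mitochondria, carried nearly all sphingosine kinase RNA. Its level was 23.7, 22.7, 21.4 and 23.3 TPM in LPL overexpression libraries 1 to 4, against 21.6, 21.8 and 20.9 TPM in controls 1 to 3. The groups overlapped. The log2 fold change of 0.06 (SE 0.05) did not pass (edgeR adjusted p = 0.285), and its 95% interval ran from -0.03 to 0.15. Sphk1 made up 1.65% ± 0.171 (SD, n = 4) of the TPM of the 2 kinases with LPL overexpression and 0.121% ± 0.125 (SD, n = 3) in the controls. Sphk2 (chromosome 7, minus strand, 45709467 to 45718002) overlaps Dbp and Rpl18 on the plus strand. Counted in the sense orientation it had 3058 reads in the LPL overexpression libraries and 2206 in the controls, but 2829 in the LPL overexpression libraries and 2040 in the controls when both orientations were counted together.

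Spns2, which exports S1P from endothelial cells, was the second most abundant of the 8 genes and fell. The gene (ENSMUSG00000040447.15) lies on the minus strand of chromosome 11, from 72451638 to 72489904. It stood at 137, 132, 133 and 138 TPM in LPL overexpression libraries 1 to 4, against 150.3, 154 and 156 TPM in controls 1 to 3. The lowest control was above the highest LPL overexpression library. Spns2 fell by 13.8% in scaled counts, a log2 fold change of -0.21 (SE 0.03, edgeR adjusted p = 1.31e-09), lower in 4 of 4 libraries. That value also lay inside the range of the endothelial markers, -0.40 to -0.02. Emcn (endomucin) at -0.21 and Tek (the angiopoietin receptor) at -0.18 were nearest and were named after their values were seen. The range is wide. It also holds the median of all genes that fell (-0.19) and Sgpl1 (-0.07), which did not pass. The end of Spns2 overlaps Mybbp1a on the other strand, and Spns2 had 17735 sense reads in the LPL overexpression libraries and 15482 in the controls. With both orientations counted together it had 17043 reads with LPL overexpression and 14884 in the controls.

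Neither of the 2 degrading enzymes passed the test. Sgpl1, the lyase that cleaves S1P irreversibly (chromosome 10, minus strand, 61098642 to 61147703), stood at 31.7, 32.0, 33.1 and 32.3 TPM in LPL overexpression libraries 1 to 4, against 34.2, 33.1 and 32.2 TPM in controls 1 to 3. The groups overlapped, and the log2 fold change was -0.07 (SE 0.04, edgeR adjusted p = 0.129), with a 95% interval from -0.14 to 0.00. Sgpp1, the phosphatase of the endoplasmic reticulum that returns S1P to sphingosine (chromosome 12, minus strand, 75714248 to 75735729), stood at 6.87, 8.12, 7.63 and 7.82 TPM in LPL overexpression libraries 1 to 4, against 8.61, 6.77 and 7.01 TPM in controls 1 to 3. Control replicate 1 was the highest of the 7 and control replicate 2 the lowest. The log2 fold change was 0.01 (SE 0.09, edgeR adjusted p = 0.956), with a 95% interval from -0.17 to 0.18, which includes the value of S1pr1.

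**Figure D3:**
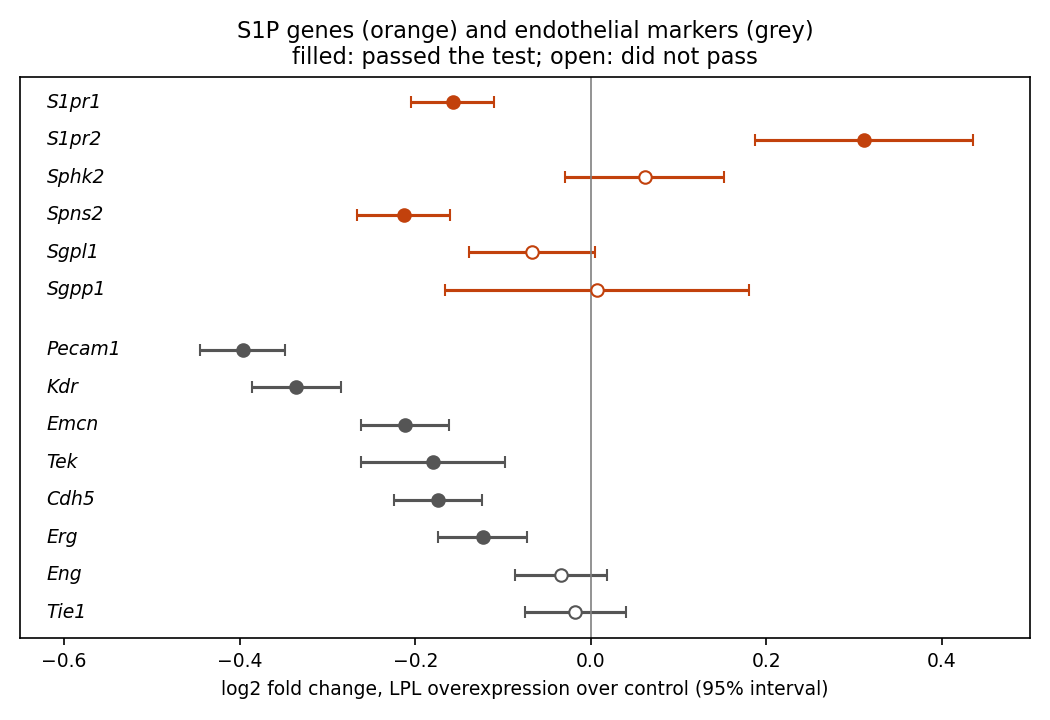
Log2 fold change of LPL overexpression over control with its 95% interval from edgeR for 6 S1P genes (orange, top) and 8 endothelial markers (grey, below); filled points passed the adjusted p threshold of 0.05 and open points did not. S1pr2 lies at 0.31 while every endothelial marker lies between -0.40 and -0.02; S1pr3 and Sphk1 are not drawn.

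In both groups the order of levels per length was S1pr1, Spns2, Sgpl1, Sphk2, Sgpp1, S1pr2, Sphk1 and S1pr3. With LPL overexpression Sgpp1 (6.87 to 8.12 TPM) and S1pr2 (6.42 to 7.30 TPM) overlapped, whereas in the controls Sgpp1 (6.77 to 8.61 TPM) stayed above S1pr2 (5.21 to 5.58 TPM). Sphk1 and S1pr3 overlapped in the controls, where 1 library had no read of either. No other neighbours in the order overlapped within a group.

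The other genes of the pathway and of receptor signalling changed in both directions. Of 56 such genes in 5 lists, 45 were tested, 14 rose, 18 fell and 13 did not pass. Their median was -0.06 on the log2 scale. Thus 32 of the 45 passed, where 43.2% of all genes tested did, 21.9% higher and 21.3% lower. The lists were chosen with earlier results of these data known and were not matched to all genes for level. The difference from that share is therefore no result about the pathway. Cers6, Ugt8a and Acer2 entered the test only through the LPL overexpression libraries and S1pr4 only through the controls, so the calls of these genes are no support for their direction, although the counts hold them. The 11 genes not tested had at most 27 reads over the LPL overexpression libraries and 16 over the controls.

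Of 8 further genes that sense, carry, export or dephosphorylate S1P, 5 were tested, 1 rose and 3 fell, S1pr4 among them, where 43.2% of all genes tested passed and 21.3% fell, and the median was -0.14 on the log2 scale. Plpp2 and Plpp1, lipid phosphatases of the cell surface that can hydrolyse extracellular lipid phosphates, fell. Plpp2 stood at 575 ± 4.03 TPM (SD, n = 4) with LPL overexpression and 672 ± 13.6 TPM (SD, n = 3) in the controls, a log2 fold change of -0.25 (SE 0.02, edgeR adjusted p = 1.60e-12), and Plpp1 had a log2 fold change of -0.14. Plpp3, the family member linked to protection of vessel walls, rose to 74.9 ± 2.02 TPM (SD, n = 4), against 65.5 ± 2.41 TPM (SD, n = 3) in the controls, a log2 fold change of 0.17 (SE 0.04, edgeR adjusted p = 1.01e-04). S1pr4, a receptor best known from lymphocytes, had 4, 9, 7 and 8 reads with LPL overexpression, against 25, 17 and 18 reads in the controls, with a fitted log2 fold change of -1.49 (SE 0.32), a description for the reason given above. S1pr5 had 0 reads. Mfsd2b, the S1P exporter of red cells and platelets, had 42 reads with LPL overexpression and 34 in the controls and did not pass (edgeR adjusted p = 0.832). Apom, the S1P carrier on HDL, had 13 reads with LPL overexpression and 5 in the controls and was not tested, and its pooled CPM ratio was 1.96 (95% counting interval 0.655 to 7.01).

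Genes that supply ceramide and sphingosine, the precursors of S1P, were divided. Of 22, 16 were tested, 7 rose, 5 fell and 4 did not pass, with a median log2 fold change of -0.04, where 21.9% of all genes tested rose and 21.3% fell. Among the 5 that fell, Cers2, a ceramide synthase gene named after its values were seen, had only -0.07 (edgeR adjusted p = 0.0404) and lost its call in 9 of 15 alternatives, among them DESeq2 (adjusted p = 0.0915) and the fits without LPL overexpression replicate 1 (0.215) or 3 (0.0551) or control replicate 1 (0.184) or 2 (0.122). Kdsr, a reductase of the first steps of sphingoid base synthesis, fell by 0.25 (SE 0.04) on the log2 scale. Acer3, an alkaline ceramidase, fell by 0.32 (SE 0.04). Ormdl1, one of the ORMDL proteins that restrain serine palmitoyltransferase, had 0.31 (SE 0.10, edgeR adjusted p = 0.0131), but DESeq2 did not call it (adjusted p = 0.0669). Cers6, a ceramide synthase gene named after its values were seen, had 76, 83, 88 and 80 reads with LPL overexpression and 0 in every control, at least 82.1-fold more than the floor of 3 reads over the control group. Acer2, the ceramidase of the Golgi that yields sphingosine, also named after its values were seen, had 65, 71, 62 and 60 reads with LPL overexpression, against 10, 8 and 5 in the controls, with a fitted log2 fold change of 3.06 (SE 0.24). Cers6, Acer2 and Sphk1 were all low or unread in the controls, and the pigment cell genes appeared in the same 4 libraries; the part of whatever gave those genes in these reads was not tested.

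Among 10 genes for other fates and sources of ceramide, all tested, 4 rose, 2 fell and 4 did not pass, with a median log2 fold change of 0.19, where 43.2% of all genes tested passed. Ugt8a, with 0 control reads, is 1 of the 4. Sgms2, a sphingomyelin synthase of the plasma membrane, fell to 20.4 ± 1.12 TPM (SD, n = 4) with LPL overexpression, against 31.1 ± 1.03 TPM (SD, n = 3) in the controls, a log2 fold change of -0.64 (SE 0.04, edgeR adjusted p = 5.37e-19). Ugcg, the glucosylceramide synthase gene, had -0.35 (SE 0.03) and Cerk, the ceramide kinase gene, 0.36 (SE 0.05). Each LPL overexpression library lay beyond each control for these 3 genes, where the groups did not overlap in CPM for 44.6% of all genes tested. The 3 were named by the size of a passing change, so their separation adds no support.

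Of the 8 tested genes for G proteins and small GTPases of S1P receptor signalling, 5 fell, 0 rose and 3 did not pass, with a median log2 fold change of -0.14, where 21.3% of all genes tested fell and 21.9% rose. Rac1, the GTPase that acts downstream of S1PR1, stood at 461 ± 14.9 TPM (SD, n = 4) with LPL overexpression and 534 ± 14.3 TPM (SD, n = 3) in the controls, a log2 fold change of -0.24 (SE 0.03, edgeR adjusted p = 2.30e-11). Gna11 had -0.19 and Gna12 -0.18, and both passed. Of the 6 tested genes in the list of S1pr1 regulators, 2 rose and 3 fell (median -0.09), where 21.9% of all genes tested rose and 21.3% fell. Klf2, a flow-responsive transcription factor known to activate S1pr1, stood at 192, 183, 201 and 206 TPM with LPL overexpression, against 247, 256 and 237 TPM in the controls. Its log2 fold change was -0.36 (SE 0.03, edgeR adjusted p = 1.26e-12). Rtn4, placed in this list although its Nogo-B product restrains serine palmitoyltransferase in endothelium, had 0.16 (SE 0.02, edgeR adjusted p = 1.09e-07). Foxf1, a transcription factor linked to S1pr1 in lung endothelium, had -0.16 (SE 0.06, edgeR adjusted p = 0.0268), which DESeq2 did not call (adjusted p = 0.0972), nor edgeR without LPL overexpression replicate 2 (log2 fold change -0.09, adjusted p = 0.217). The call was also lost without LPL overexpression replicate 1 (adjusted p = 0.0756), control replicate 2 (0.0802) or control replicate 3 (0.101), with upper-quartile scaling (0.0503) and with limma on log2(TPM + 0.5) (0.157).

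**Figure D4:**
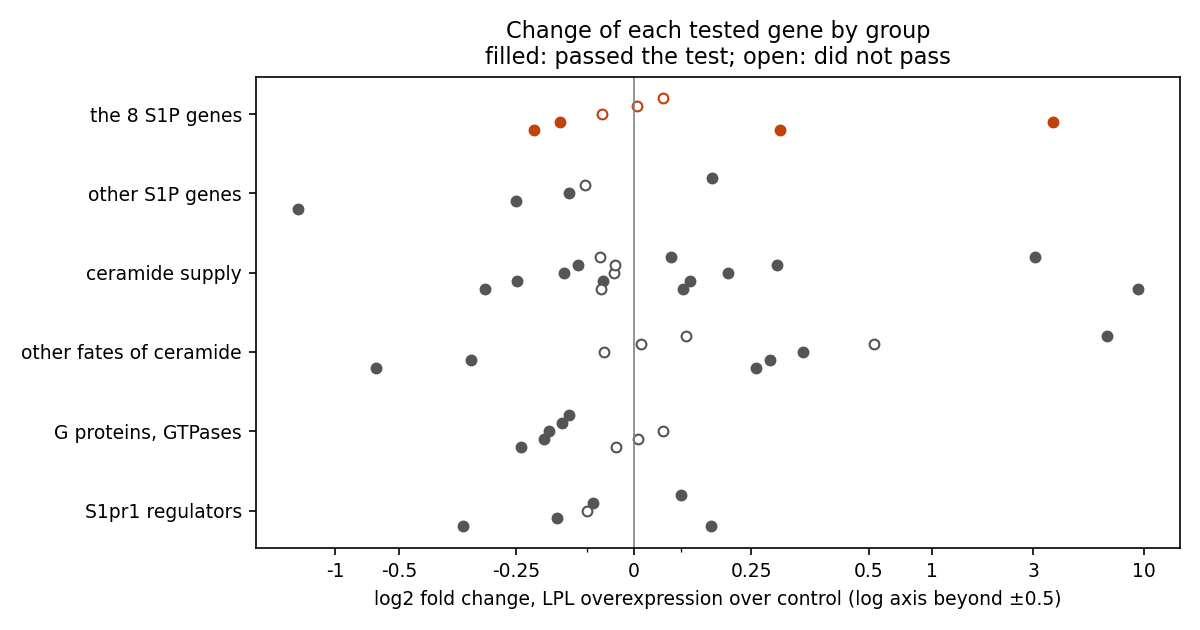
Log2 fold change of LPL overexpression over control for each tested gene, by list, on an axis that is linear within ±0.5 and logarithmic beyond; orange points are the S1P genes and grey points the 5 other lists, filled where the adjusted p threshold of 0.05 was passed. Most points lie within ±0.5, and the tested G protein and GTPase genes that passed all lie below 0. The far right points, Cers6 and Ugt8a, had 0 control reads, so their fitted values depend on the prior count.

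By root mean square distance between centred log2 CPM values over the 7 libraries, Sptbn1 (0.0124) and Impad1 (0.0128) were among the genes closest to S1pr1, of 8768 with a mean of at least 10 CPM. Their log2 fold changes were -0.16 and -0.15. For Sphk1 the closest were Ckb (0.25), Tubb3 (0.306) and Celf2 (0.394), with log2 fold changes of 2.29, 3.01 and 2.81. The distances for Sphk1 were larger and rest on few reads of that gene. A prior count of 2 entered these log2 CPM values, against 0, 1 and 2 reads of Sphk1 in controls 1 to 3. It shrinks the change of Sphk1, so its distances depend in part on that prior.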

How the data were processed

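RNA of 7 MS-1 libraries, 4 LPL overexpression and 3 control, was sequenced after TruSeq stranded total-RNA preparation, per the labels' protocols. Reads were aligned with STAR to mm10, per the submitters' processing notes; the sources used here name no versions, annotation release or counting options. The deposited read counts are whole numbers per gene, for both orientations and each alone, per the file headers. Reverse-orientation counts (sense, 97.0% to 97.1% of oriented reads) were tested. The levels are the authors' TPM, which the authors scaled to the same total in every library. Other deposited values, the authors' FPKM and a second TPM set treated as a score because its sums differ between libraries, were not used.

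Groups and replicate numbers came from titles. edgeR 4.0.16 (R 4.3.3) was run with TMM, filterByExpr by group, robust quasi-likelihood F tests and Benjamini-Hochberg adjustment over 13639 genes, at a threshold of 0.05; TMM-scaled CPM used the same factors. A standard error is the size of the log2 fold change divided by the root of its F value. Alternatives were DESeq2 1.42.0, 2 other scalings, no filter, both orientations, limma 3.58.1 on log2(TPM + 0.5) and log2(TPM + 1), a replicate block and leaving out each library. The edgeR step was tested on simulated counts, with 50 genes changed at each size. It recovered 24% of 1.1-fold changes, 82% of 1.25-fold and of 1.5-fold changes and 90% of 2-fold changes. Of 13439 unchanged genes 9 were called. Far more genes were called in the data (5888) than were changed in the simulation. The adjusted p cutoff was therefore stricter in the simulation, and its rates do not carry over to the data. Most changes near 1.1-fold were missed in the simulation, and a gene that did not pass in the data may still differ slightly. Members and lists were chosen with earlier results of these data known. Named genes are the 8 members, Lpl, 6 fixed pathway genes, up to 3 passing genes per pathway list by size of change with a mean of at least 2 CPM, and markers; Acer2, Cers2, Cers6, Ugt8a, Emcn, Tek, Tie1 and the markers at 0 were named after their values were seen. The 3 closest genes were sought for S1pr1 and for the member with the largest passing change, and 1 of them is not reported here. Same-group libraries differed by more than sampling noise (chi-square per degree of freedom 1.65 to 4.13). Promoter windows are RefSeq sequences (GRCm38.p6), checked against exons of GENCODE vM21; they were found for 7 of the 8 genes. No sequence is printed for S1pr1.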

Additional observations from a re-analysis of the deposited data

How the results depend on the processing

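S1pr1, S1pr2 and Spns2 kept their direction and stayed past the threshold in all 15 alternatives, and Sphk2 and Sgpl1 stayed short of it. The log2 fold change ranged from -0.16 to -0.13 for S1pr1, from 0.27 to 0.35 for S1pr2 and from -0.23 to -0.18 for Spns2. Sphk1 also stayed past it, which is no support since it passed the filter only through the LPL overexpression libraries. It had 0.75 on log2(TPM + 0.5) and 0.43 on log2(TPM + 1), where the pseudocount exceeds its level, and 3.20 to 4.60 when a library was left out. S1pr4 had -0.82 and -0.57 on the same 2 TPM scales. Sgpp1, which did not pass in any setting, changed sign with the replicate block (-0.0019) and when a library was left out (-0.058 to 0.116). Values near 0 also changed sign without 1 library for Mfsd2b (-0.27 to 0.0122), Smpd4 (-0.0133 to 0.0331) and Gnai2 (-0.0053 to 0.0293), none of which passed; the cause was not tested. S1pr3 gave no value. The Sphk1 share of kinase TPM with LPL overexpression was 1.94% with both orientations. The count of genes changed was 4850 with DESeq2 and 5136 to 5753 without 1 library. Of the changed genes 50.7% were higher (2988, with 2900 lower), against 61.3% on log2(TPM + 0.5) (3304 higher, 2082 lower). The other pathway genes changed numbered 29 to 33. Same-numbered libraries did not deviate together (r of -0.0391 to 0.0193 over genes), so the numbers were not taken as pairs; the replicate block called 5794 genes, 5474 of them shared with 5888, changed no call among the 8 genes and left the count of other pathway genes at 32. Depth limits Sphk1, whose control level rests on 3 reads, and S1pr3, which has none.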
